A study of Mus musculus with 6 samples.

Results

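The GABA-A, glycine, nicotinic acetylcholine and serotonin 5-HT3 receptors were examined subunit by subunit in motor neurons (MNs) derived from mouse embryonic stem cells (mESCs). Subunits were found by their gene symbols, which gave 42 of the 34433 gene symbols in the table. They were 19 GABA-A subunits, 5 glycine receptor subunits, 11 neuronal and 5 muscle nicotinic subunits, and 2 subunits of the 5-HT3 receptor. Where a symbol had several entries, the entry with the highest level was used.

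Control MNs came from the Hb9 mESC line, labelled wildtype and described by the authors as SMN2+/+;mSmn+/+. SMA MNs came from the A2 line, with the genotype SMN2+/+;mSmn-/-. Lines of both genotypes are on the FVB/N background, carry the human SMN2 transgene, express eGFP from the Hb9 promoter, and passed through embryoid bodies before 5 days with 1 µM retinoic acid and 1 µM Smoothened agonist (SAG). Cells that were eGFP-positive and excluded propidium iodide were sorted by FACS, and RNA of 3 samples per genotype was sequenced. Each genotype is a single mESC line, so genotype and line cannot be told apart. Levels are given in FPKM, in which fragment numbers are divided by exon length and by library size, so that genes can be compared per length. The authors' table holds 1 FPKM value per genotype, combined from the 3 samples, so no spread between samples, SD or test could be computed, and every difference below is a description without a replicate check. The study gives the total reads of each sample, but the table does not give the number of reads behind a value.

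These receptors belong to the Cys-loop family of pentameric ligand-gated ion channels, in which the subunits surround a central pore. GABA-A and glycine receptors conduct chloride and mediate fast inhibition in the mature spinal cord, although in the embryo the same currents often depolarize neurons. Nicotinic and 5-HT3 receptors conduct cations. Which subunits a cell transcribes sets which channels it can assemble, because some subunits bind the transmitter, others are structural, and some can work only beside a partner.

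The labels were checked first with the targeted gene and cell type markers. Smn1 was at 137 FPKM in Hb9 control and 5.26 FPKM in A2 SMA MNs. Among 6 MN markers that reached 1 FPKM, 5 were at least 2-fold lower in A2 SMA MNs, while Mnx1, the gene that encodes Hb9, was at 41.2 and 44.2 FPKM. The summed level of the 7 MN markers analysed was 216 FPKM in Hb9 control and 52.5 FPKM in A2 SMA MNs. Most of the A2 SMA sum was that of Mnx1, and the cells were sorted by eGFP from the Hb9 promoter. All 9 pan-neuronal markers analysed were at least 2-fold lower (summed level 1487 and 144 FPKM) and all 8 embryonic stem cell markers at least 2-fold higher (278 and 1821 FPKM). The 7 markers of GABAergic or glycinergic interneurons were also each at least 2-fold lower, with summed levels of 45.0 and 2.97 FPKM, and the 7 fibroblast markers summed to 63.6 and 32.4 FPKM. Of the skeletal muscle markers only Des reached 1 FPKM, and the other markers of that list were at 0.883 FPKM or less in each genotype. None of the markers analysed was listed at 0 FPKM in both genotypes. The part of these shifts in the receptor levels was not tested, and in RNA from pooled cells fewer cells of a type and less RNA per cell cannot be told apart.

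Of the 42 subunits, 17 (40.5%) reached 1 FPKM in either genotype, against 46% of all gene symbols. In Hb9 control MNs 15 subunits reached 1 FPKM and 10 reached 5 FPKM. In A2 SMA MNs 10 reached 1 FPKM and Chrnb1 alone reached 5 FPKM. A ratio could be formed for 16 subunits, those with more than 0 FPKM in both genotypes. Among them 11 were at least 2-fold lower in A2 SMA MNs, compared with 22.4% of 14926 genes that passed the same filter. At least 4-fold lower were 10 subunits (8.88% of genes) and at least 16-fold lower were 5 (1.86% of genes). Gabrp and Chrna9 were at least 2-fold higher, beside 6.83% of genes. Gabrp was also at least 4-fold higher (1.8% of genes), and no subunit was at least 16-fold higher (0.147% of genes). Over the 16 subunits the median log2 ratio of A2 SMA over Hb9 control MNs was -3.33 (quartiles -4.12 and -0.86). Over all 14926 genes it was -0.29 (quartiles -0.89 and 0.19). The subunits' median depends on the filter and on low values. It was -1.39 over the 31 subunits kept by a filter of 0.1 FPKM. With 1 FPKM added to each value it was -1.34 over 17 subunits, since Gabra3 then has a ratio. With that addition and no filter it was -0.12 over all 42. In the plot of levels the highest subunits in Hb9 control MNs were Chrna4, Chrna3 and Glra1, with log2 ratios of -4.41, -4.24 and -6.90. Gabrg1, at only 1.36 FPKM there, had -4.61, and Chrnb1, at 7.10 FPKM, had 0.28. Each gap is computed from the Hb9 control level, so no link between level and gap was read.

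**Figure D1:**
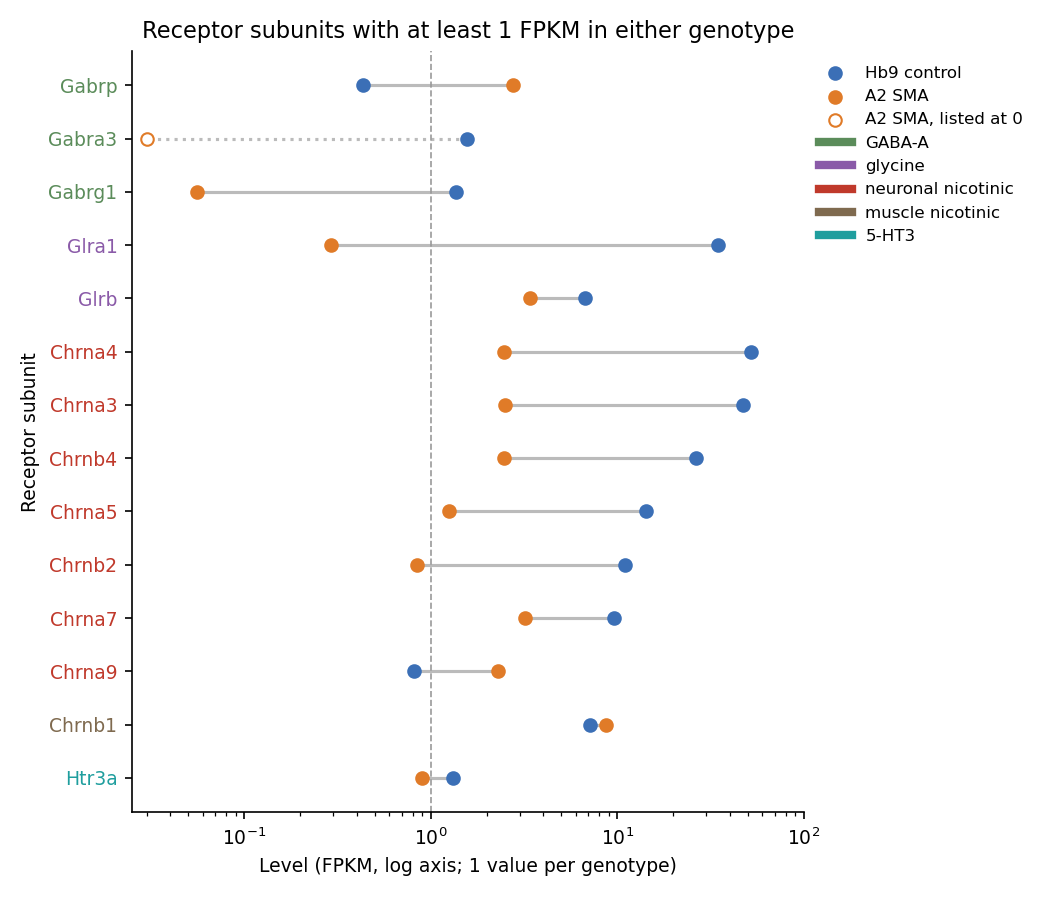
Level of 14 of the 17 receptor subunits that reached 1 FPKM in either genotype, in FPKM on a log axis, with 1 combined value for Hb9 control MNs (blue) and 1 for A2 SMA MNs (orange) and symbols coloured by receptor family. The nicotinic subunits Chrna4 and Chrna3 stand at 52.2 and 47.4 FPKM in Hb9 control MNs and at 2.46 and 2.51 FPKM in A2 SMA MNs, while Gabrp, Chrna9 and Chrnb1 are higher in A2 SMA MNs, and Gabra3, drawn open at the left edge, is listed at 0.

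Promoter sequences are shown for the highest subunits with an entry in the RefSeq table (Chrna4, Chrna3 and Chrnb4), which were lower in A2 SMA MNs, and for Gabrp and Chrna9, which were higher. Each is the 250 bases before the start of the gene in GRCm38.p6, 5′ to 3′ on the gene's strand, whereas the expression table uses NCBI m37. Capitals mark the GC box GGGCGG and the E-box CAGCTG on either strand, motifs that were chosen after seeing their matches and that share no overlap in these windows.
Chrna4 (chr2:181039178-181039427, minus strand): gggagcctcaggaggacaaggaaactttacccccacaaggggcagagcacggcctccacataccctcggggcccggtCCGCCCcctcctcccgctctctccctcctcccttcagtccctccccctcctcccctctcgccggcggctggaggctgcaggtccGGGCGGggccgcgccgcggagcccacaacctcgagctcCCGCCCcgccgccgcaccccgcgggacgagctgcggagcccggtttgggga
Chrna3 (chr9:55026563-55026812, minus strand): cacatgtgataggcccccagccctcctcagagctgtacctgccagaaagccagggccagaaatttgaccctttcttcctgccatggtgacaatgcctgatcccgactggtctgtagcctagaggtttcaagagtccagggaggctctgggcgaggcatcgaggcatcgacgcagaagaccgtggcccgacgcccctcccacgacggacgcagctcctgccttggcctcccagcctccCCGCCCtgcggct
Chrnb4 (chr9:55048545-55048794, minus strand): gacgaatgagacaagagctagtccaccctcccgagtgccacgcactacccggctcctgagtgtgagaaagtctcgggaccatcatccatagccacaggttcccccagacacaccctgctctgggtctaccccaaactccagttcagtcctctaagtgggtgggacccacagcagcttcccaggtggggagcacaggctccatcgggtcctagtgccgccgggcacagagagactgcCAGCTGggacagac
Gabrp (chr11:33578958-33579207, minus strand): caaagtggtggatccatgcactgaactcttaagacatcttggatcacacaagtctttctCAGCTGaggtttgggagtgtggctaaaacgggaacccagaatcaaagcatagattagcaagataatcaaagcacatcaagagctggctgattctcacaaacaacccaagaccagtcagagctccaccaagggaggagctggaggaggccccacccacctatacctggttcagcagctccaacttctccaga
Chrna9 (chr5:65966874-65967123, plus strand): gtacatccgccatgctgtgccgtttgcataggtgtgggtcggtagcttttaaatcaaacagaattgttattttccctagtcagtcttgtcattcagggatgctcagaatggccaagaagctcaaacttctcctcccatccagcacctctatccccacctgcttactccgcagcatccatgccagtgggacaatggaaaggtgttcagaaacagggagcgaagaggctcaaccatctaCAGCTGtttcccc
The Chrna4 window was rich in G and C (74.4%) with 24 CpG dinucleotides and 3 GC boxes. That of Chrna3 had 63.2% GC, 13 CpGs and 1 GC box, and that of Chrnb4 had 61.2% GC, 8 CpGs, no GC box and 1 E-box. Gabrp (49.2% GC, 1 CpG) and Chrna9 (50% GC, 5 CpGs) each held 1 E-box and no GC box. Promoters were matched for 32 of the 42 subunits, with 37 start sites. A GC box was found at 15 of these sites (40.5%) and at 32.7% of the 32851 sites in the whole table, and an E-box at 7 sites (18.9%) and at 13.0%. Of 7 matched subunits that were at least 2-fold lower in A2 SMA MNs, 4 had a GC box (35.4% of all genes with a promoter) and 1 had an E-box (14.7% of all genes). The median GC content was 56% for the subunits and 52.4% for all sites. These matches describe letters in the window and not sites of binding.

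The neuronal nicotinic receptors carried most of the receptor transcripts in Hb9 control MNs. Their 11 subunits summed to 162 FPKM in Hb9 control and 15.2 FPKM in A2 SMA MNs, a 10.6-fold lower sum. Of the 7 subunits with a ratio, 6 were at least 2-fold lower in A2 SMA MNs (22.4% of all genes) and 1 was at least 2-fold higher (6.83% of all genes). Their median log2 ratio was -3.51, and -2.76 with 1 FPKM added to each value. With that addition and no filter the median over all 11 subunits was -1.34. Chrna4, the acetylcholine-binding subunit of the main high-affinity receptor of the brain, maps to chr2:180753085-180778251 (NCBI m37). It had the highest level of all 42 subunits in Hb9 control MNs, at 52.2 FPKM, and was at 2.46 FPKM in A2 SMA MNs (log2 ratio -4.41). Its usual partner Chrnb2 was at 11.1 and 0.847 FPKM (log2 ratio -3.71, and -2.71 with 1 FPKM added to each value). The entry of Chrnb2 has the status FAIL, by which Cuffdiff marks a comparison it could not compute, and shares its locus on chromosome 3 with Adar, at 36.1 and 28.3 FPKM. Chrna4 exceeded Chrnb2 4.72-fold in Hb9 control MNs and 2.90-fold in A2 SMA MNs.

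Chrna3, Chrnb4 and Chrna5 together form the nicotinic receptor known from autonomic ganglia, where Chrna5 is an accessory subunit. Chrna3 was at 47.4 FPKM in Hb9 control and 2.51 FPKM in A2 SMA MNs (log2 ratio -4.24). Chrnb4 had levels of 26.3 and 2.47 FPKM (log2 ratio -3.41), and Chrna5 had levels of 14.2 and 1.25 FPKM (log2 ratio -3.51). All 3 were lower in A2 SMA MNs, and with 1 FPKM added to each value the log2 ratio of Chrna5 was -2.76. The level of Chrna3 was 1.8 times that of Chrnb4 in Hb9 control MNs and 1.02 times in A2 SMA MNs. Chrna7, which can form receptors on its own, differed less, with 9.64 FPKM in Hb9 control and 3.22 FPKM in A2 SMA MNs (log2 ratio -1.58). It was seventh in order in Hb9 control MNs, and in A2 SMA MNs only Chrnb1 and Glrb had higher levels.

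Chrna9, a subunit best known from the hair cells of the inner ear, went the other way, with 0.813 FPKM in Hb9 control and 2.30 FPKM in A2 SMA MNs. This was a 2.83-fold difference (log2 ratio 1.5), and with 1 FPKM added to each value it was under 2-fold (log2 ratio 0.86). Chrna10, its partner in hair cells, was at 0.0755 and 0.0780 FPKM. Chrna2, Chrna6 and Chrnb3 were under 0.1 FPKM in each genotype. Their entries have the status NOTEST, which Cuffdiff gives where too few reads were aligned for its test. In Hb9 control MNs Chrna4 and Chrna3 made up 32.3% and 29.3% of the summed FPKM of this family. In A2 SMA MNs the largest share was that of Chrna7, at 21.2% (5.96% in Hb9 control MNs), and Chrna9 made up 15.1% (0.503%). The share of Chrnb4 was 16.3% in both genotypes.

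**Figure D2:**
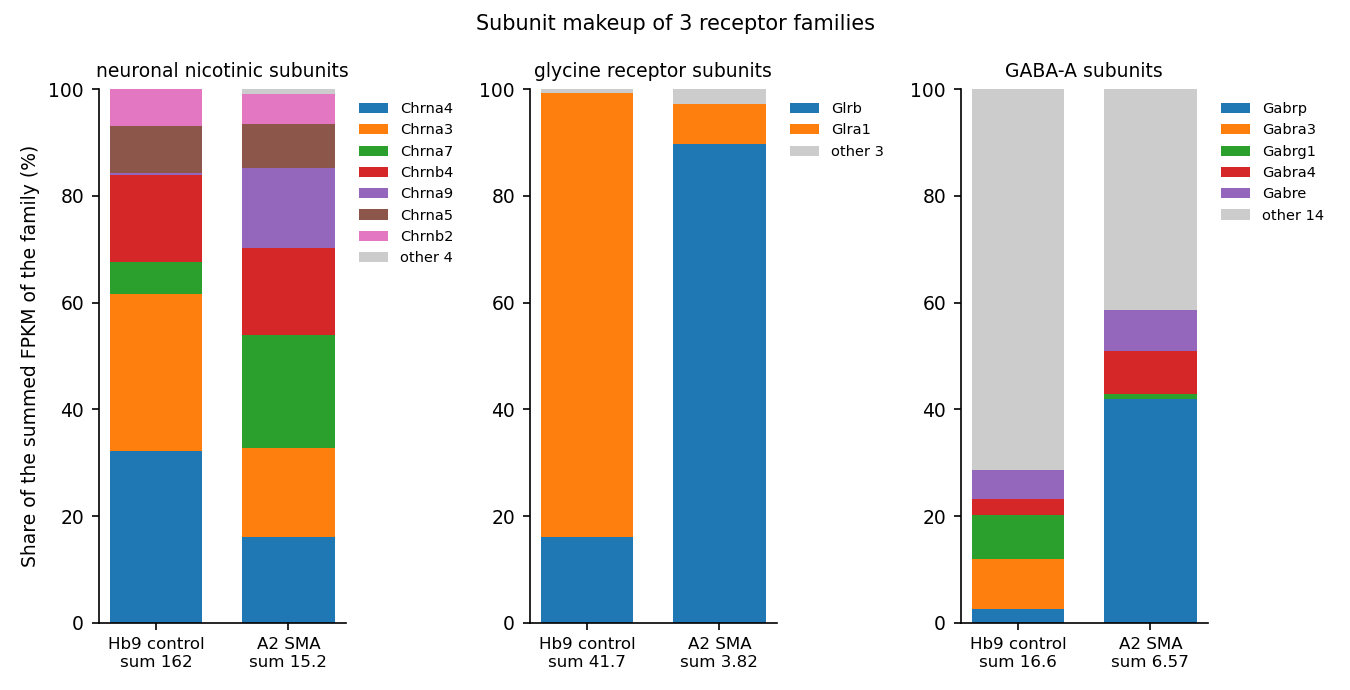
Share of each subunit in the summed FPKM of its receptor family (percent), for Hb9 control and A2 SMA MNs, with the summed FPKM under each bar and subunits under 5% in both genotypes or not reported here joined in grey. Glra1 makes up 83.3% of the glycine receptor sum in Hb9 control MNs and 7.62% in A2 SMA MNs, and Gabrp 2.59% and 41.9% of the GABA-A sum.

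Chrna5, Chrna3 and Chrnb4 are neighbours on chromosome 9, within 67908 bp from 54828687 to 54896594 of NCBI m37. The entries of Chrna5 and Chrna3 are 116 bp apart and those of Chrna3 and Chrnb4 1516 bp apart. The genes around them were looked at after the values of the cluster were seen. Psma4, a proteasome gene 22849 bp from Chrna5, was at 34.5 FPKM in Hb9 control and 33.1 FPKM in A2 SMA MNs by its higher entry, and Ireb2 was at 81.0 and 81.9 FPKM. On the far side Ube2q2 was at 12.6 and 10.3 FPKM, at a distance of 99851 bp from Chrnb4. Between Chrnb4 and Ube2q2 lies a locus of 18249 bp without a gene symbol, 16193 bp from Chrnb4. Its 3 entries were all lower in A2 SMA MNs, but they have the same coordinates and are not separate loci. Its highest entry was at 7.01 FPKM in Hb9 control and 0.0667 FPKM in A2 SMA MNs (log2 ratio -6.72). The named genes on each side of this stretch had a log2 ratio between -0.58 and 0.02.

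**Figure D3:**
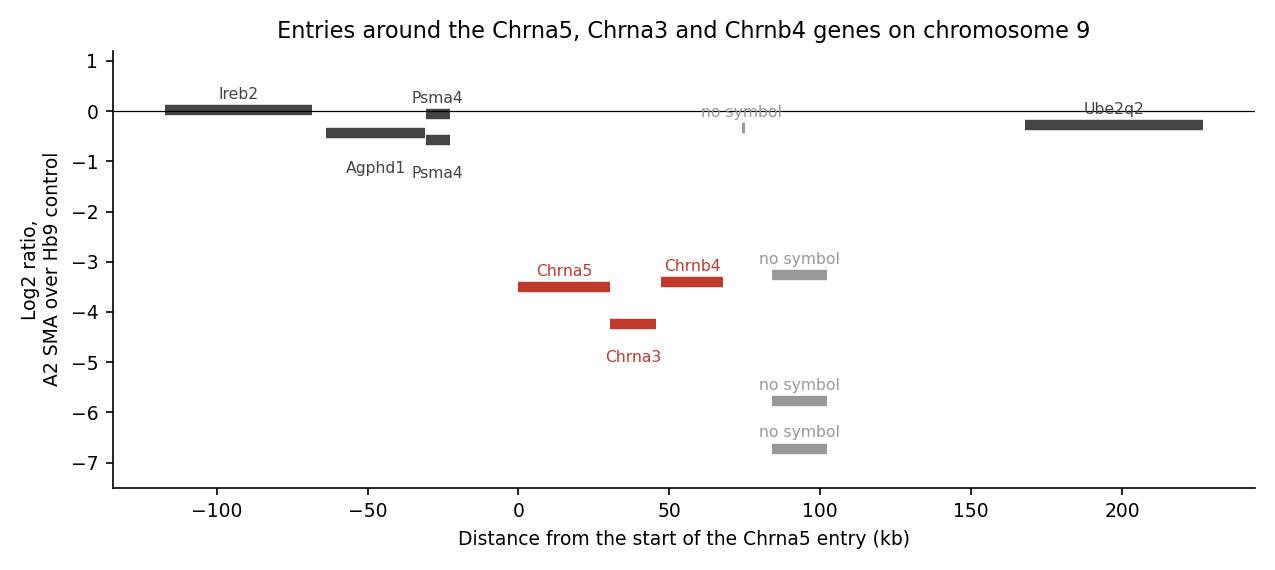
Log2 ratio of A2 SMA over Hb9 control MNs for each entry with at least 1 FPKM in either genotype within 150 kb of the Chrna5, Chrna3 and Chrnb4 genes, drawn to scale against the distance in kb from the start of the Chrna5 entry. The 3 receptor genes (red) lie between -4.24 and -3.41 and the flanking named genes (black) near 0.

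The glycine receptor differed most in its alpha subunit. Glra1, the transmitter-binding subunit of the adult spinal receptor, was at 34.7 FPKM in Hb9 control MNs, the third highest of the 42 subunits, and at 0.291 FPKM in A2 SMA MNs. This was a 119-fold difference (log2 ratio -6.90), and only 2 of the 14926 genes had a lower ratio. With 1 FPKM added to each value the log2 ratio of Glra1 was -4.79. Glrb, the beta subunit that tethers the receptor to the scaffold protein gephyrin, was at 6.69 and 3.42 FPKM (log2 ratio -0.97), just short of 2-fold. The level of Glra1 was therefore 5.19 times that of Glrb in Hb9 control MNs and 0.085 times that of Glrb in A2 SMA MNs. Glra2, the alpha subunit known as the embryonic form, was at 0.158 and 0.0537 FPKM. Glra3 was at 0.0958 FPKM in Hb9 controls and listed at 0 in A2 SMA MNs, and Glra4 was at 0.0274 and 0.0509 FPKM. The family summed to 41.7 and 3.82 FPKM.

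The locus that the table gives for Glra1, on chromosome 11 from 55283098 to 55422137, also holds G3bp1, which encodes a stress granule protein. G3bp1 was at 48.9 FPKM in Hb9 control and 53.3 FPKM in A2 SMA MNs. A gene model in the same locus, Gm12236, was at 7.06 FPKM in Hb9 controls and listed at 0 in A2 SMA MNs. No source used here states that reads were counted by strand, so reads of overlapping genes cannot be told apart.

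GABA-A subunits were low in both genotypes. Their 19 members summed to 16.6 FPKM in Hb9 control and 6.57 FPKM in A2 SMA MNs, and 6 of them reached 1 FPKM in either genotype. Of the 5 with a ratio, 4 were at least 2-fold lower in A2 SMA MNs (22.4% of all genes) and 1 was at least 2-fold higher (6.83% of all genes). Gabrg1, a gamma subunit, was at 1.36 and 0.0558 FPKM (log2 ratio -4.61, 24.4-fold lower). The level of Gabrg1 in A2 SMA MNs is near the bottom of the scale, and adding 1 FPKM to each value moved its log2 ratio to -1.16.

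Gabra3, another alpha subunit, has 4 entries in the table. The highest was at 1.56 FPKM in Hb9 controls and listed at 0 in A2 SMA MNs, so it was given no ratio. The 4 entries summed to 3.72 FPKM in Hb9 control and 0.162 FPKM in A2 SMA MNs (log2 ratio -4.52). Gabrp, the pi subunit, known mainly from the uterus and other epithelia, was the only GABA-A subunit with at least 1 FPKM that was higher in A2 SMA MNs. Its highest entry was at 0.431 FPKM in Hb9 control and 2.75 FPKM in A2 SMA MNs (log2 ratio 2.68, 6.39-fold). Its second entry, at the same locus, was at 0.299 and 2.21 FPKM. With 1 FPKM added to each value the log2 ratio of Gabrp was 1.39. Gabrp was the most abundant GABA-A subunit in A2 SMA MNs, at 41.9% of the summed FPKM of the family, and 108 of the 14926 genes had a higher ratio.

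The other 13 GABA-A subunits were under 1 FPKM in both genotypes. Gabre was at 0.901 and 0.503 FPKM and Gabra4 at 0.507 and 0.533 FPKM. Gabrb2 was at 0.556 and 0.101 FPKM, Gabra2 at 0.430 and 0.0313 FPKM, and Gabrd, a subunit of receptors outside synapses, at 0.277 and 0.0533 FPKM. The remaining 8 were under 0.2 FPKM, among them the retinal rho subunits Gabrr1, Gabrr2 and Gabrr3, and Gabra6, known from cerebellar granule cells, was listed at 0 in both genotypes. Of the 25 subunits of all families under 1 FPKM, 21 have the status NOTEST. The 20 of them above 0 in both genotypes split into 11 lower and 9 higher in A2 SMA MNs. At least 2-fold lower were 7 of these, and 2 were at least 2-fold higher. Of all genes that reached 1 FPKM and had a ratio, 65.9% were lower, and the share among genes under 1 FPKM was not computed.

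Subunits that lie side by side did not all have like levels. In all, 25 of the 42 subunits lie in 9 such clusters. In the cluster of Gabre, Gabra3 and Gabrq on the X chromosome, which spans 586604 bp, Gabra3, at 1.56 FPKM in Hb9 control MNs and listed at 0 in A2 SMA MNs, lies between Gabre (0.901 and 0.503 FPKM) and Gabrq (0.161 and 0.0751 FPKM, status NOTEST). In the cluster of Gabrg1, Gabra2, Gabra4 and Gabrb1 on chromosome 5 Gabra4 had nearly equal levels while Gabrg1, next but one to it, was 24.4-fold lower. With 1 FPKM added to each value the log2 ratio of Gabrg1 was -1.16. Gabra2, which lies between Gabrg1 and Gabra4, was lower like Gabrg1, at 0.430 and 0.0313 FPKM (status NOTEST). No test was made of the likeness within clusters.

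Muscle nicotinic subunits were read apart, because they form the receptor on the muscle side of the neuromuscular junction. Chrnb1, a structural subunit on chromosome 11 from 69597538 to 69609445, was at 7.10 FPKM in Hb9 control and 8.65 FPKM in A2 SMA MNs (log2 ratio 0.28). It was the most abundant of the 42 subunits in A2 SMA MNs, having been eighth in Hb9 control MNs. Chrna1, which binds acetylcholine, was at 0.368 and 0.716 FPKM, and Chrng, the subunit of the fetal receptor, was at 0.868 and 0.331 FPKM. Chrne, which takes the place of Chrng in the adult receptor, was at 0.205 and 0.225 FPKM and Chrnd at 0.0351 and 0.0951 FPKM. Of the 4 muscle subunits with a matched promoter, 3 (Chrna1, Chrng and Chrne) held an E-box, a motif chosen after seeing its matches that 14.7% of all 27025 genes with a promoter held. Chrnb1 held GC boxes and no E-box, and 35.4% of all genes held a GC box.

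The 5-HT3 receptor had 1 subunit above 1 FPKM. Htr3a, which can form the channel alone, was at 1.31 FPKM in Hb9 control and 0.894 FPKM in A2 SMA MNs (log2 ratio -0.55). Htr3b, which needs Htr3a, was at 0.102 and 0.0585 FPKM. After centring on the median gene, Htr3a stood at -0.26 (log2 ratio).

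**Figure D4:**
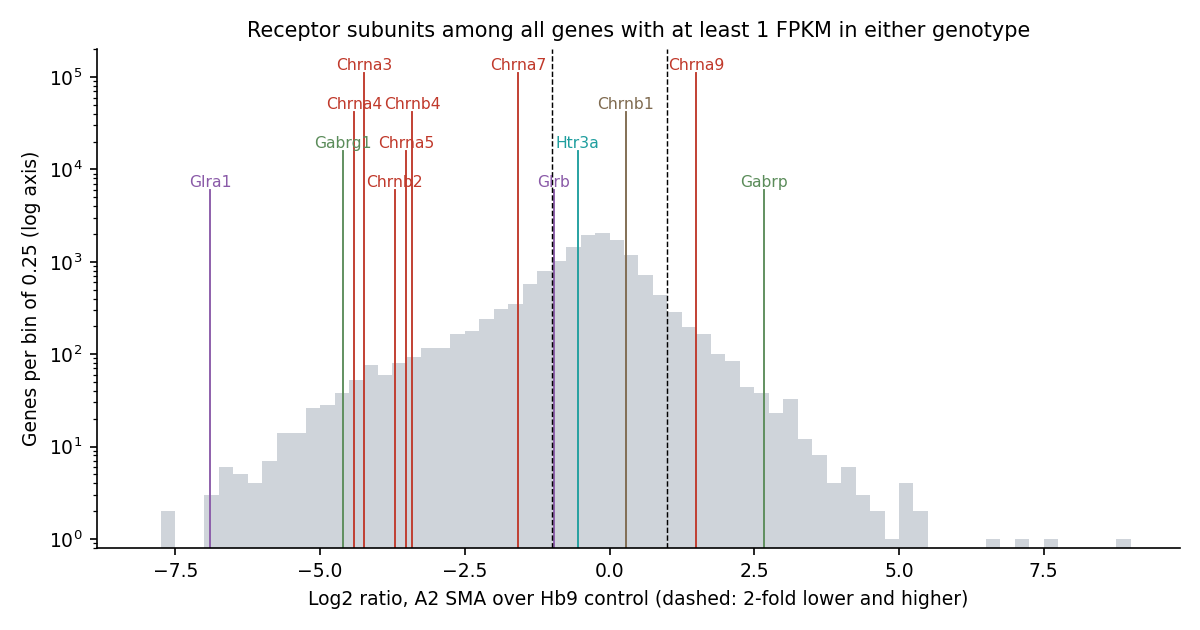
Log2 ratio of A2 SMA over Hb9 control MNs for the 14926 genes that reached 1 FPKM in either genotype and were above 0 in both (grey bars, genes per bin on a log axis), with a line at each of 13 of the 16 receptor subunits that have a ratio. Of the lines drawn 8 lie beyond the dashed line for 2-fold lower and 2 beyond that for 2-fold higher.

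Partner genes were read from lists of proteins that anchor, assemble or supply these receptors. Of 16 genes for anchoring and trafficking of GABA-A and glycine receptors, 6 were at least 2-fold lower in A2 SMA MNs (22.4% of all genes) and none was 2-fold higher (6.83% of all genes). The median log2 ratio was -0.89, beside -0.29 for all genes. Gabarap, a trafficking protein of GABA-A receptors, was at 330 and 120 FPKM, and its entry has the status FAIL. Nlgn2, the adhesion protein of inhibitory synapses, was at 103 and 31.7 FPKM, and Nsf, a general factor of vesicle fusion, was at 68.4 and 107 FPKM. Lhfpl4, an auxiliary subunit of GABA-A receptors, had the lowest log2 ratio, with 12 FPKM in Hb9 control and 0.726 FPKM in A2 SMA MNs.

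Of 13 genes for assembly and clustering of nicotinic receptors, 10 reached 1 FPKM in either genotype, 8 of them at least 2-fold lower in A2 SMA MNs (22.4% of all genes) and 1 at least 2-fold higher (6.83% of all genes), with a median log2 ratio of -1.46. Agrn, which encodes the MN-derived organizer of the neuromuscular junction, was at 198 and 110 FPKM. Ly6h, a modulator of nicotinic receptors, was at 137 and 6.61 FPKM (log2 ratio -4.37), and Ly6e, of the same protein family, was at 72.9 and 28.6 FPKM. Rapsn, the scaffold of muscle nicotinic receptors, was higher in A2 SMA MNs, at 0.663 FPKM in Hb9 control and 2.88 FPKM in A2 SMA MNs. Tmem35, a chaperone for neuronal nicotinic receptors that was chosen after its values were seen, was at 44.8 and 2.53 FPKM.

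Genes for the supply of GABA and glycine and for chloride transport had a median log2 ratio of -3.39, and 8 of the 10 were at least 2-fold lower in A2 SMA MNs (22.4% of all genes). Of these 8 genes, 4 are also among the interneuron markers given above. Slc6a9, a glycine transporter, was at 24.1 and 19.6 FPKM. Slc12a2, which loads chloride into young neurons, was at 19.6 FPKM in Hb9 control and 24.2 FPKM in A2 SMA MNs, with the status FAIL.

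Among 19 G protein-coupled receptors for the same transmitters, 3 reached 1 FPKM in either genotype. Gabbr1, a GABA-B receptor subunit, was at 100 FPKM in Hb9 control and 38.2 FPKM in A2 SMA MNs, above every subunit of the ligand-gated receptors in both genotypes. The muscarinic receptor Chrm4 was at 3.72 and 1.18 FPKM, with the status FAIL, and Chrm3 was at 0.516 and 1.69 FPKM. The ionotropic glutamate receptors, the other large group of ligand-gated channels of neurons, had 11 of 18 subunits with a ratio. Of these, 8 were at least 2-fold lower in A2 SMA MNs (22.4% of all genes) and 1 at least 2-fold higher (6.83% of all genes), with a median log2 ratio of -2.00. Grik5 was at 40.1 and 9.98 FPKM, also with the status FAIL, Grik3 at 9.49 and 7.47 FPKM, and Grin1 at 5.12 and 12.7 FPKM. Gria2 had the lowest log2 ratio of this list, with 5.93 and 0.0713 FPKM. The medians of the receptor groups were set side by side without a test of their difference.

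**Figure D5:**
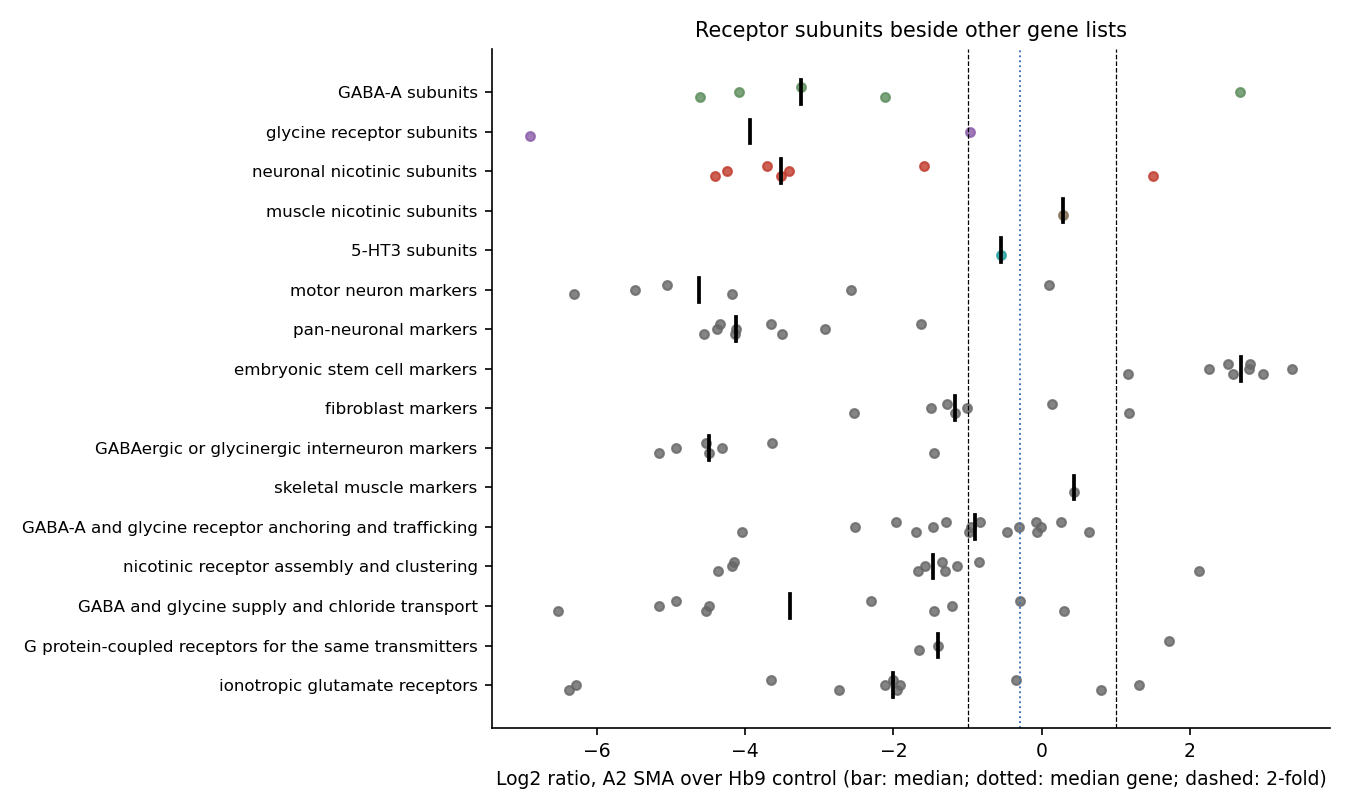
Log2 ratio of A2 SMA over Hb9 control MNs for each gene that reached 1 FPKM in either genotype and was above 0 in both (points), by receptor family (coloured) and by other gene list (grey), with the median of each as a black bar and the median gene as a dotted line. The neuronal nicotinic median is -3.51, the pan-neuronal marker median -4.13 and the embryonic stem cell marker median 2.69.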

How the data were processed

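RNA was sequenced from FACS-purified MNs of 3 Hb9 control and 3 A2 SMA samples. The authors checked reads with FastQC 0.10.1, trimmed them with CutAdapt, mapped them to NCBI m37 with TopHat 2.04 and the Ensembl annotation, used Cufflinks for assembly and Cuffdiff to compare genotypes, as given in the methods and the submitters' processing notes. The versions of Cufflinks and Cuffdiff are not given in the sources used here. The authors deposited FPKM values as gene-level Cuffdiff output with 41945 entries, 1 value per genotype. The same table holds the authors' log2 fold changes, test statistics, p-values and q-values, which were not used. Its status column was read as a mark of entries with too few reads (NOTEST, 19615 entries) or a failed computation (FAIL, 2747).

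The table was read with Python 3.11.15, numpy 2.4.6 and pandas 2.3.3, and figures were drawn with matplotlib 3.10.9. The gene column was split at commas and the entry with the highest FPKM was taken per symbol. Log2 ratios are A2 SMA over Hb9 control values without a pseudocount, for genes that reached 1 FPKM in either genotype and were above 0 in both. Differences of at least 2-fold were counted, beside the same count over 14926 genes. No test was possible with 1 value per genotype, and the table holds no read numbers. The study gives total reads per sample, which were not used here. Locus starts count from 0 (the RefSeq length of 175 of 411 short RNA genes matched on that reading and none on the other) and were shifted to count from 1. The procedure was tested on simulated data.

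All 42 subunits are counted, and those that reached 1 FPKM are given with their ratio, except 3 subunits and 1 gene of another list that are not reported here. From other lists, at most the 3 most abundant genes and those with the largest and smallest log2 ratios are named, and other genes are said to be chosen after their values were seen. Members and lists were chosen with earlier results of these data known. Markers under symbols not found in the table (Slc18a3, Tubb3, Map2 and Acta1) were not analysed here. Alternatives were other FPKM filters, pseudocounts, scalings, summed entries, and leaving out the status FAIL or entries with several symbols.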

Additional observations from a re-analysis of the deposited data

How the results depend on the processing

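No paired analysis was possible because the table holds 1 value per genotype and carries no replicate numbers, and leaving out a sample was not possible for the same reason. The log2 ratios of the 16 subunits kept their sign in all 153 recomputed values, and 135 stayed within 1.5-fold of the reported ratio. The other 18 were nearer to 0 under a pseudocount, where the lowest levels weigh least. Much of this likeness was fixed in advance. The filters and left-out entries did not alter the ratios that remained, and a pseudocount cannot change a sign. Only the scalings and the summed entries could have changed one. The 11 subunits at least 2-fold lower ranged from 8 to 18 over the alternatives, and reached 18 of 31 subunits with a filter of 0.1 FPKM. The share of all genes under other filters or with a pseudocount was not computed, so these counts have no background beside them. The filter of 0.1 FPKM gave medians of -1.39 for all subunits, -1.25 for GABA-A and -1.56 for glycine receptor subunits. With a filter of 5 FPKM no subunit was 2-fold higher, since fewer were left, and the GABA-A median was -2.11. A pseudocount of 1 FPKM, which brings in Gabra3 as a 17th subunit, left 1 subunit 2-fold higher (Gabrp). It gave medians of -1.34 for all subunits, -1.22 for GABA-A, -2.79 for glycine receptor and -2.76 for neuronal nicotinic subunits. Without a filter the same pseudocount gave 1, -0.12, -0.11, -0.14 and -1.34, since most subunits are near 0 FPKM. Counting Gabra3 by its summed entries, chosen after seeing the data, gave 12 lower subunits. Centring on the median gene (a shift of -0.29) left the subunits at 11 lower and 2 higher. Of all 14926 genes, 16.5% were then at least 2-fold lower and 1558 at least 2-fold higher. The share of higher ones among all genes past 2-fold went from 23.4% to 38.8%. Levels under 1 FPKM and differences near 2-fold, such as that of Glrb, are limited by the lack of read numbers per gene and of values per sample.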

Other observations

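At the locus of Gabrp an entry without a gene symbol was at 0.460 FPKM in Hb9 control and 2.73 FPKM in A2 SMA MNs, close to the levels of the 2 Gabrp entries there. Beside Chrnb4, a 51-bp entry without a symbol was at 4054 FPKM in Hb9 control and 3209 FPKM in A2 SMA MNs, far above the genes around it.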
